A study of Mus musculus with 9 samples.

Results

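Triphenyl phosphate (TPhP) was set directly against its metabolite diphenyl phosphate (DPhP) in Leydig cells from mouse testis, kept in primary culture; these cells make testosterone and lie between the seminiferous tubules. TPhP, a plasticiser and flame retardant, is a phosphate ester with 3 phenyl groups, and DPhP lacks 1 of them. The comparison took 3 TPhP and 3 DPhP libraries, 6 of the 9 libraries of the series, and 12369 of the 19058 genes in the expression table, namely those with at least 1 FPKM (read fragments scaled to transcript length and to mapped fragments) in 3 or more of the 9 libraries. All cells came from testis of wild-type animals; no source used here gives strain, age, dose or length of exposure, so it is not known whether the compounds were used at matched doses and times. The 3 libraries of untreated control cells entered no test and are given beside the results as levels only. Separate cultures or animals behind the libraries of a group are not stated in the labels; without them, a p-value covers the spread of these libraries alone, which may be technical.

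As background, Leydig cells respond to luteinising hormone through a receptor that raises cyclic AMP. Cholesterol, made in the cell from acetyl-CoA or taken up from lipoproteins, is carried into mitochondria with the help of the steroidogenic acute regulatory protein (Star), cut to pregnenolone by the side-chain cleavage enzyme Cyp11a1 and carried on to androgens by Hsd3b, Cyp17a1 and Hsd17b enzymes. The transcription factor SREBP-2 controls the genes of cholesterol synthesis and uptake as a group, and is held in check by sterols.

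Summed FPKM lay between 419107 and 422363 in the TPhP, 398680 and 401930 in the DPhP and 421963 and 428928 in the control libraries. Genes listed at 0 numbered at most 2066, 2546 and 2002 in the same order. Read depth is not known, so no counting interval is given. Across tested genes, the Pearson correlation between log2 levels was at least 0.9968 within each of the TPhP and DPhP groups, 0.9563 to 0.9573 between them, 0.9950 to 0.9960 between TPhP and control libraries and 0.9534 to 0.9562 between DPhP and control libraries, so DPhP libraries were the ones set apart.

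Marker genes of the labelled cell type were present, but their level differed between the groups compared. The 6 tested Leydig markers summed to 1758 to 1828 FPKM in TPhP and 328 to 342 in DPhP libraries, with 1670 to 1785 in controls. In TPhP libraries this sum came mostly from Hsd3b1, Insl3 and Cyp11a1. All 6 were called higher in TPhP, but log2 differences (TPhP minus DPhP, on log2(FPKM + 1)) ran from 0.20 for Star to 5.47 for Insl3. Their median was 1.45, and 0.77 among genes with at least 90% of their sequence unique to them. The steroidogenic enzymes Cyp17a1 (0 to 0.25 FPKM) and Hsd17b3 (0 to 0.08 FPKM) were at or near 0 in all 9 libraries. Markers of several other testis cells were higher in DPhP libraries. The 7 markers of peritubular myoid cells summed to 600 to 634 FPKM in TPhP and 1569 to 1630 in DPhP, the 7 of stromal fibroblasts to 3041 to 3115 and 5390 to 5526, the 10 of macrophages to 1277 to 1291 and 1751 to 1866, the 6 of Sertoli cells to 274 to 278 and 358 to 369, and the 2 of endothelial cells to 10.1 to 10.8 and 29.8 to 31.1. The defining Sertoli genes Amh, Rhox5 and Fshr stayed at or below 0.45 FPKM and the endothelial genes Pecam1 and Emcn at or below 0.31 FPKM in all libraries. The endothelial markers Tek and Vwf, also too low to be tested, were not higher in DPhP. Tek was at 0.77 to 0.96 FPKM in TPhP and 0.44 to 0.60 in DPhP, and Vwf at 0.58 to 0.80 and 0.56 to 0.60. The sum of the 7 tested germ cell markers ran the other way, at 32.4 to 39.2 FPKM in TPhP and 5.60 to 5.93 in DPhP. Of these 7, 5 were called higher in TPhP and 2 were not called. The 3 tested haemoglobin genes summed to 10.7 to 13.4 FPKM in TPhP and were listed at 0 in every DPhP library, with 2 called and 1 not called. The part of these marker differences in the results below was not tested. In bulk RNA, fewer cells of a type and less RNA per cell cannot be told apart.

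**Figure D1:**
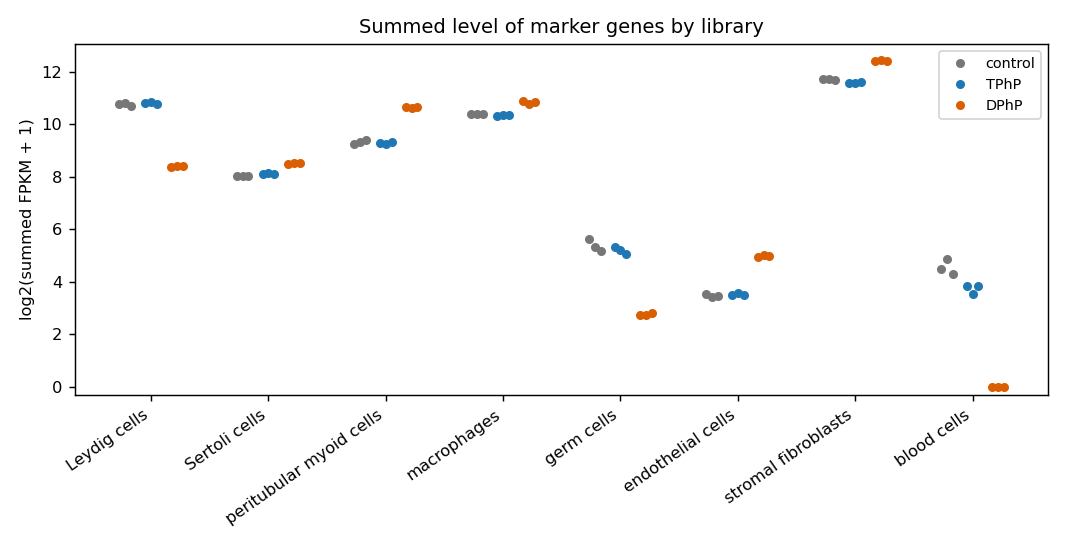
Summed FPKM of the tested marker genes of 8 cell types in each library, plotted as log2(summed FPKM + 1), with 1 point per library and colours for control, TPhP and DPhP. Control and TPhP libraries lie close together for Leydig markers (1670 to 1828 FPKM), while the 3 DPhP libraries lie lower for Leydig, germ cell and blood markers and higher for the other 5 cell types.

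Most tested genes separated the compounds, the majority by small amounts. At an adjusted p under 0.05, 8440 genes (68.2% of those tested) were called: 4626 (37.4%) higher in TPhP and 3814 (30.8%) higher in DPhP. This split depends on scaling: after rescaling to a common sum the calls numbered 3771 higher in TPhP and 4743 higher in DPhP. Counts for the gene lists below are to be read beside the shares over all tested genes, 37.4% higher in TPhP and 30.8% higher in DPhP. The median absolute log2 difference was 0.22 over all tested genes, with differences taken as TPhP minus DPhP on the log2(FPKM + 1) scale throughout. Differences of at least 1 on that scale were called for 660 genes (5.34%), 356 (2.88%) higher in TPhP and 304 (2.46%) higher in DPhP, and differences of at least 3 for 12 and 5 genes. The groups did not overlap for 8879 genes (71.8%). At the other end, 2715 of the 12369 genes had a 95% interval lying wholly within 0.2 of 0.

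Beside these differences, control libraries mostly lay with TPhP. Of the 660 genes with a called difference of at least 1, the control range overlapped the TPhP range for 403 (61.1%) and lay between the groups for 130 (19.7%), and the TPhP range lay between control and DPhP for 119 (18.0%). Control overlapped DPhP for 2 of the 660. Over all calls, the control libraries lay between the groups for 564 genes higher in TPhP and 360 higher in DPhP.

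**Figure D2:**
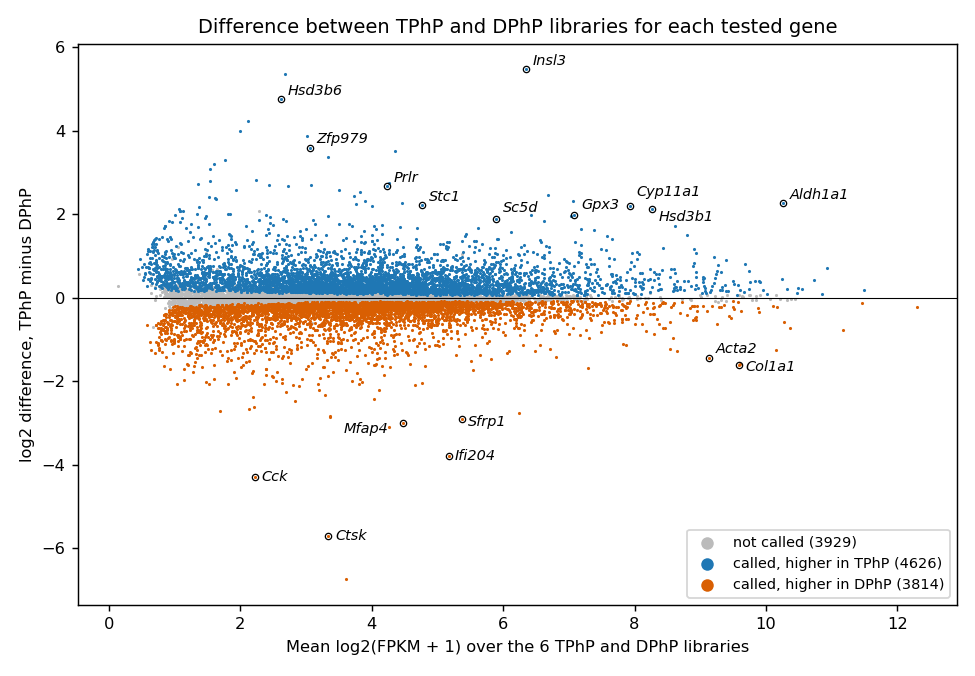
Log2 difference between TPhP and DPhP libraries (vertical axis, TPhP minus DPhP) against the mean log2(FPKM + 1) over the 6 libraries (horizontal axis), 1 point per tested gene, coloured by the call at an adjusted p under 0.05. Most of the 8440 called genes lie near 0, and the labelled Leydig genes Insl3, Hsd3b6, Cyp11a1 and Hsd3b1 and the DPhP-high genes Ctsk, Cck and Ifi204 stand far from it.

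The 10 genes furthest on the TPhP side (a mean of at least 1 FPKM, no overlap between groups, symbols with a Gm, Rik or LOC name left out) included both Leydig genes and genes listed at 0 in DPhP. Insl3, the insulin-like hormone of Leydig cells, (RefSeq gene on GRCm38.p6, chr8:71689252-71690577) stood at 534, 566 and 529 FPKM in TPhP and 11.3, 10.4 and 12.4 in DPhP libraries, a log2 difference of 5.47 (95% interval 5.34 to 5.59, adjusted p = 8.57e-12). Only 39.9% of its transcript sequence is unique to it, so reads may be shared with an overlapping or similar gene. Ly6k, a membrane-anchored Ly6 family protein, followed the same pattern at 66.2, 68.8 and 67.9 FPKM in TPhP and 4.89, 5.27 and 4.95 in DPhP (3.51). Zfp979, a zinc finger gene, was at 27.6, 28.9 and 27.8 FPKM in TPhP and 1.81, 1.11 and 1.32 in DPhP (3.60; 80.2% unique sequence). Ahcy, which hydrolyses S-adenosylhomocysteine, was at 12.3, 10.5 and 11.99 FPKM and 0.62, 1.57 and 0.32 FPKM in the same order, but only 25.6% of its sequence is unique. Alb (serum albumin) was at 14.7, 12.7 and 18.04 FPKM in TPhP and listed at 0 in all 3 DPhP libraries, and the sperm protamine Prm2 was at 7.76, 8.64 and 6.24 FPKM and listed at 0 in the same way. Its partner Prm1 was at 12.4, 9.48 and 7.80 FPKM in TPhP and 0.28, 0 and 0 in DPhP, and the haemoglobin gene Hbb-bs at 6.19, 8.92 and 10.1 FPKM and listed at 0. Alb, the protamines and Hbb-bs are genes of other cells than Leydig cells. Against control, Alb lay at -0.35 in TPhP and -4.36 in DPhP libraries on the log2 scale. The labels do not say whether the groups were prepared or sequenced together. For these and all other genes, a difference in preparation therefore cannot be told apart from the compound. In all, 17 of the 12369 tested genes were listed at 0 in every DPhP library and 1 in every TPhP library. These counts are not like for like. The filter took in the control libraries, which mostly lay with TPhP, so a gene at 0 in DPhP could pass it more easily than one at 0 in TPhP.

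On the DPhP side, the list chosen in the same way was led by a protease. Ctsk, the cysteine protease cathepsin K (chr3:95499210-95509387), stood at 0.46, 0.43 and 0.32 FPKM in TPhP and 71.7, 72.9 and 71.8 in DPhP libraries, a log2 difference of -5.71 (95% interval -5.81 to -5.60, adjusted p = 3.74e-12), and its control libraries were at 0.39, 0.42 and 0.36 FPKM. Cck, the precursor of the peptide cholecystokinin, went from 0, 0.09 and 0.08 FPKM in TPhP to 18.7, 18.6 and 21.1 in DPhP (-4.28). Both genes were thus near 0 in TPhP and control cells and plainly expressed in DPhP libraries. Mdk, the heparin-binding growth factor midkine, was at 2.77, 2.80 and 2.97 FPKM in TPhP and 25.5, 26.3 and 28.2 in DPhP (-2.85), and Emb (embigin), a membrane partner of monocarboxylate transporters, at 3.20, 2.76 and 2.65 and 26.6, 26.1 and 26.96 FPKM (-2.84). Morf4l1b, Cd300ld4 and Srp54b completed the 10, with differences of -2.75, -2.72 and -2.65; Cd300ld4 and Srp54b have 9.64% and 0.924% unique sequence and Morf4l1b has no value, so their reads cannot be assigned with certainty. Of the 660 genes past a difference of 1, 72 had under 90% unique sequence and 23 had no value.

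Cholesterol synthesis separated the compounds in both directions from the control. Of 22 tested enzymes of the pathway, 19 were higher in TPhP and 1 in DPhP, 8 of them by at least 1, and the median log2 difference was 0.81 against 0.03 over all genes. For all 19, the 3 control libraries lay between the TPhP and the DPhP libraries. The largest difference was in Sc5d, the lathosterol desaturase near the end of the pathway, at 113, 116 and 112 FPKM in TPhP, 86.3, 84.1 and 87.1 in control and 31.4, 28.04 and 29.8 in DPhP libraries. Its log2 difference was 1.90 (95% interval 1.81 to 1.99, adjusted p = 5.83e-10), and no library of one group reached the range of another. Msmo1, which removes methyl groups at carbon 4 of the sterol, was at 293, 297 and 290.5 FPKM in TPhP, 205, 213 and 199 in control and 99.2, 87.8 and 95.1 in DPhP libraries (1.63). Tm7sf2, a sterol C14 reductase, was at 22.8, 23.2 and 22.01 FPKM in TPhP, 13.6, 14.3 and 14.98 in control and 7.46, 8.17 and 7.07 in DPhP libraries (1.47). On the log2 scale, in all 3 genes the DPhP libraries lay further below control than the TPhP libraries lay above it.

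The promoter sequences of these 3 genes and of Hmgcs1 are shown because nearly all measured members of the pathway moved together. They are bases upstream of the transcription start in the RefSeq annotation of GRCm38.p6, written 5′ to 3′ on the gene's strand and ending at the base before the start. Capitals mark CCAAT on either strand (ATTGG is its complement) and, in Hmgcs1, a match to the sterol regulatory motif TCACNCCAC. The windows are chr9:42264301-42264420 (minus strand), chr8:64733579-64733698 (minus strand), chr19:6067851-6067970 (minus strand) and chr13:119690201-119690350 (plus strand).
Sc5d: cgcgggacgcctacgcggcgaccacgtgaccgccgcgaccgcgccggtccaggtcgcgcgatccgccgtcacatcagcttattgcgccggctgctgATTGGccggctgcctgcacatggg
Msmo1: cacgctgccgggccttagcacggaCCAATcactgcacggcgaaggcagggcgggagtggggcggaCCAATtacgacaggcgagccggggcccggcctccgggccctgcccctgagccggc
Tm7sf2: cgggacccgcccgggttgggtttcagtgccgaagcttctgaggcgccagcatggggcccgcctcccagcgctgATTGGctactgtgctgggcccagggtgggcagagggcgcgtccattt
Hmgcs1: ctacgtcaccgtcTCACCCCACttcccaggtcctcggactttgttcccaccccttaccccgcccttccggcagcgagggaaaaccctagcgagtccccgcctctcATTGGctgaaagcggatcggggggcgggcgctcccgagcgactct
Some genes have more than 1 listed promoter (32851 promoters for 27025 genes), and a gene counted when any of them held the letters. Over the 250 bases before a start, CCAAT was found on either strand in 16 of the 17 pathway genes in the promoter table (94.1%, with Acat2 without it). It was found in 4016 of 9826 tested genes (40.9%). TCACNCCAC was found in 1 of the 17, Hmgcs1, and in 120 tested genes (1.2%). A match describes the letters of the window and nothing about binding. Fdps, Fdft1 and Sqle were among the members not in the promoter table.

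The 8 genes of the pathway with a difference of at least 1 all act after squalene. Hmgcs1, a synthase early in the pathway, stood at 275, 272 and 269 FPKM in TPhP and 143, 136 and 142 in DPhP libraries, a log2 difference of 0.95. Among these 8, Lss (lanosterol synthase), Hsd17b7 (a sterol 3-keto reductase), Dhcr7 (the last reductase to cholesterol) and Cyp51 (the lanosterol 14-demethylase) had log2 differences of 1.20, 1.14, 1.09 and 1.02, and 54.9, 49.4 and 51.9 FPKM in TPhP against 22.2, 22.7 and 21.5 in DPhP for Lss. Members outside this pattern included Ggps1, which makes a precursor for protein prenylation and was not called at -0.07 (95% interval -0.18 to 0.04, adjusted p = 0.225), and Lbr, a nuclear membrane protein with sterol reductase activity, which was higher in DPhP (-0.28).

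**Figure D3:**
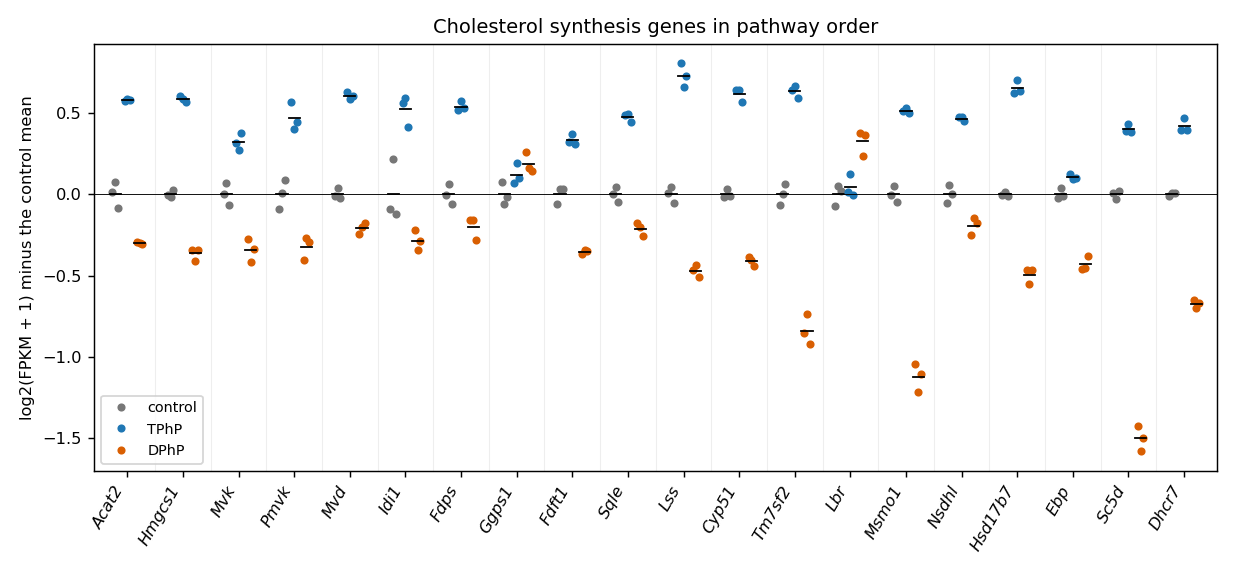
Level of each of 20 tested cholesterol synthesis genes in every library, in pathway order, as log2(FPKM + 1) minus the control mean, with bars at group means. TPhP libraries lie above and DPhP libraries below control for 18 of them, while Ggps1 and Lbr do not follow.

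Regulators and carriers of sterols differed less uniformly. Of 13 tested sterol sensing genes, 5 were higher in TPhP and 3 in DPhP; Scap, the escort of SREBP proteins (0.76), Insig1, the membrane anchor that retains them (0.75), and Srebf2, which encodes SREBP-2 (0.67), were among those higher in TPhP, and Mylip, a ligase that marks lipoprotein receptors for degradation, was higher in DPhP (-0.51). The list's median was 0.04, and it was -0.02 after rescaling to a common sum. Srebf2 stood at 59.6, 58.7 and 58.3 FPKM in TPhP and 35.97, 37.3 and 36.9 in DPhP libraries, with control between at 50.8, 51.9 and 50.1. Among 22 genes of cholesterol uptake, efflux and transport, 15 were higher in TPhP and 4 in DPhP (median 0.19; 0.12 after a common sum). Abca1, the cholesterol efflux pump, was at 327, 311 and 314 FPKM in TPhP and 113, 114 and 114 in DPhP (1.47 (95% interval 1.41 to 1.53, adjusted p = 2.34e-10)). The lipoprotein receptors Vldlr and Lrp1 were higher in DPhP (-0.55 and -0.25).

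Cyp7b1 and Ch25h were higher in DPhP, with control between the groups. Cyp7b1, the oxysterol 7-alpha-hydroxylase, was at 5.33, 5.26 and 5.60 FPKM in TPhP, 7.96, 9.03 and 8.53 in control and 17.2, 15.3 and 15.9 in DPhP libraries (-1.42 (95% interval -1.53 to -1.31, adjusted p = 1.09e-08)). Ch25h, which makes 25-hydroxycholesterol, stood at 2.94 to 4.15 FPKM in TPhP, 4.66 to 5.03 in control and 8.80 to 9.63 in DPhP (-1.23). Both are named because they are among the 8 genes higher in DPhP with control between the groups and the largest gaps on both sides; the others were Ngfr, the p75 neurotrophin receptor (-2.09), Tgm2, a transglutaminase (-1.64), Kank4 (-1.30), Wdr92 (-1.30), the pentraxin Ptx3 (-1.17) and the growth factor Tgfb2 (-0.84). Of the 8 such genes higher in TPhP, 6 were cholesterol synthesis enzymes, and the others were Mblac2 (0.93) and Lipg, a lipase acting on lipoproteins, at 76.03, 69.8 and 71.01 FPKM in TPhP and 24.5, 24.4 and 24.9 in DPhP (1.52).

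Steroid synthesis genes were higher in TPhP than in DPhP libraries. Of 21 tested enzymes and carriers, 19 were higher in TPhP and 1 in DPhP, 6 by at least 1 on the log2 scale, with a median of 0.62. Cyp11a1 (chr9:57998024-58027031) stood at 520.4, 519 and 527 FPKM in TPhP and 110.5, 114 and 114 in DPhP libraries, a log2 difference of 2.20 (95% interval 2.14 to 2.26, adjusted p = 1.34e-11). Hsd3b1, which converts pregnenolone to progesterone, was at 653, 661 and 614 FPKM in TPhP and 142, 145 and 151 in DPhP (2.13). Its relative Hsd3b6, the isoform of adult mouse Leydig cells (chr3:98805504-98814443), was at 30.7, 32.3 and 30.6 FPKM in TPhP, 25.4, 24.4 and 24.1 in control and 0.22, 0.14 and 0.18 in DPhP libraries (4.77 (95% interval 4.66 to 4.88, adjusted p = 8.85e-12)). Hsd3b1 therefore remained among the well expressed genes of the DPhP libraries, while Hsd3b6 was close to 0 there. Fdx1, the ferredoxin that passes electrons to Cyp11a1, was at 118 to 127 FPKM in TPhP and 46.9 to 53.2 in DPhP (1.26), and Stard4, a cytosolic cholesterol carrier, had a difference of 0.80. Star differed little beside these: it was at 35.8, 34.5 and 37.4 FPKM in TPhP and 29.9, 31 and 32.4 in DPhP, a difference of 0.20 (95% interval 0.11 to 0.29, adjusted p = 0.00153). The exception in direction was Hsd11b1, which regenerates active glucocorticoid, at 9.38, 10.6 and 10.9 FPKM in TPhP, 17.1, 16.98 and 16.2 in control and 18.9, 15.9 and 16.8 in DPhP (-0.69). The summed Leydig markers are no separate measure, since Star, Cyp11a1 and Hsd3b1, 3 of the 6, belong to this list. With a trend of GC content and transcript length removed, the list's median was 0.41.

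Leydig identity genes did not all take one direction. Of 22 tested, 13 were higher in TPhP and 6 in DPhP (median 0.46; 0.24 with the GC and length trend removed). The prolactin receptor Prlr stood at 49.7, 47.02 and 43.8 FPKM in TPhP and 6.51, 6.16 and 6.76 in DPhP libraries (2.68 (95% interval 2.56 to 2.79, adjusted p = 2.86e-10)). Vcam1, an adhesion molecule, was at 72.5 to 77.6 FPKM in TPhP and 27.5 to 28.6 in DPhP (1.37). Nr5a1, the transcription factor SF-1 that drives steroidogenic genes, was at 46.2, 46.2 and 49.3 FPKM in TPhP and 33.9, 34.8 and 32.4 in DPhP (0.48), and the luteinising hormone receptor Lhcgr was low in both, at 1.62, 1.80 and 1.76 and 0.64, 0.62 and 0.55 FPKM (0.77). On the log2(FPKM + 1) scale, the differences of both regulators were smaller than those of Cyp11a1, Hsd3b1 or Insl3. That scale understates the change of a gene as low as Lhcgr. On the DPhP side, Dlk1, a Notch-related ligand of immature and stem Leydig cells, was at 6.01, 5.39 and 5.52 FPKM in TPhP and 16.7, 15.5 and 15.6 in DPhP (-1.35), and Thbs2, a matrix glycoprotein, had a difference of -0.66.

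The kallikreins Klk1b21, Klk1b24 and Klk1b27, serine proteases of a gene cluster on mouse chromosome 7, were close to 0 in DPhP libraries as Hsd3b6 was; Klk1b27 was added after its values were seen. Klk1b24 was at 5.62, 7.09 and 7.41 FPKM in TPhP and 0.12, 0.18 and 0 in DPhP libraries (2.80). Klk1b21 was at 6, 5.27 and 5.68 FPKM in TPhP and 0.11, 0.36 and 0.28 in DPhP (2.42). Klk1b27 was at 4.06, 3.02 and 3.08 FPKM in TPhP and 0, 0 and 0.09 in DPhP (2.08). Their control libraries lay between 3.62 and 7.36 FPKM, and unique sequence was 87.3%, 85.6% and 94.6% for Klk1b21, Klk1b24 and Klk1b27, so some reads may be shared with relatives of the cluster. Upstream sequence is shown because these 3 neighbours differ together and share much of it. Printed are the bases from -250 to -141 relative to the RefSeq start, at chr7:44102042-44102151, chr7:44187986-44188095 and chr7:44052040-44052149 on the plus strand of GRCm38.p6. Capitals mark TGACCT, the complement of AGGTCA, a short nuclear receptor motif that does not identify a particular receptor. Longer sites of named receptors, such as that of Nr5a1, were not searched, and binding was not tested.
Klk1b21: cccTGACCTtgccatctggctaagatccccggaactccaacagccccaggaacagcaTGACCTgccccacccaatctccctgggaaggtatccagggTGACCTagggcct
Klk1b24: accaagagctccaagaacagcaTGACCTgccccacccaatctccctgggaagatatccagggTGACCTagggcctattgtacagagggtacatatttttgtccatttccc
Klk1b27: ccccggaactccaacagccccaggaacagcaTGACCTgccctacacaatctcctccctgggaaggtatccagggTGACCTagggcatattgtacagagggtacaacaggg
The letters AGGTCA occurred on either strand in the 250 bases before at least 1 listed start in 1247 of 9826 tested genes (12.7%). The same held for 2 of the 17 cholesterol synthesis genes (11.8%).

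**Figure D4:**
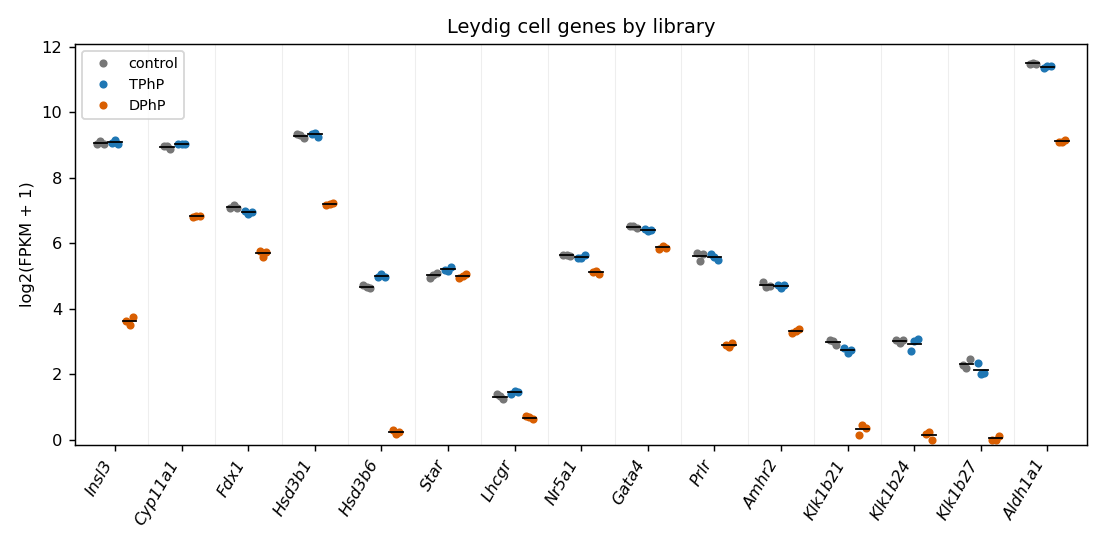
Level of 15 Leydig cell genes in each library as log2(FPKM + 1), with bars at group means and colours for control, TPhP and DPhP. DPhP libraries lie below the other 6 for every gene shown except Star, for which DPhP and control overlap, and the distance is widest for Insl3 and Hsd3b6.

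Genes of luteinising hormone and cyclic AMP signalling divided almost evenly, with 10 of 26 higher in TPhP and 11 in DPhP (median -0.07, and -0.13 after a common sum). Over all tested genes the shares were 37.4% and 30.8%. The adenylyl cyclase Adcy9 was higher in TPhP (0.84). The cyclic AMP phosphodiesterases Pde4b and Pde4d were higher in DPhP: Pde4b stood at 1.58, 1.37 and 1.35 FPKM in TPhP and 7.36, 7.14 and 7.78 in DPhP (-1.79 (95% interval -1.93 to -1.66, adjusted p = 8.48e-09)), and Pde4d at 2.97, 2.99 and 2.85 and 7.58, 6.60 and 7.53 FPKM (-1.06). Akap12, an anchor for protein kinase A, was higher in DPhP as well (-0.94). For all 3, the range of the control libraries overlapped that of TPhP.

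Lipid genes were mostly higher in TPhP. In fatty acid synthesis and desaturation, 13 of 21 were higher in TPhP and 2 in DPhP (median 0.14; 0.08 after a common sum), led by malic enzyme Me1 at 716, 705 and 709 FPKM in TPhP and 336, 327 and 339.97 in DPhP (1.08; 81.1% unique sequence). The elongase Elovl6 (0.84), the desaturase Fads2 (0.71) and the citrate lyase Acly (0.60) followed. Fasn, the fatty acid synthase, was not called at -0.05 (95% interval -0.11 to 0.01, adjusted p = 0.15), although both groups lay above control (30.99 to 32.3 FPKM), and it was called higher in DPhP after rescaling to a common sum (-0.12). In fatty acid oxidation, 19 of 27 were higher in TPhP and 3 in DPhP (median 0.20; 0.12 after quantile normalization), with the thiolase Acaa2 at 214, 212 and 209.9 FPKM in TPhP and 101, 101 and 96.3 in DPhP (1.08). Of 23 targets of peroxisome proliferator-activated receptors and lipid droplet genes, 15 were higher in TPhP and 5 in DPhP (median 0.26). Fabp3, a fatty acid carrier, was at 46.1, 46.1 and 43.7 FPKM in TPhP and 12.4, 14.3 and 13.8 in DPhP (1.68; 75.7% unique sequence), and Angptl4, an inhibitor of lipoprotein lipase, and the kinase Pdk4 had differences of 1.49 and 1.34. Cidea, a lipid droplet protein, and G0s2, an inhibitor of triglyceride lipase, were higher in DPhP (-0.79 and -0.67).

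Respiratory chain genes were mostly higher in TPhP. In complex I, 32 of 37 were higher in TPhP and 2 in DPhP (median 0.45), and in complexes II to V 34 of 40 and 2 (median 0.31). Ndufa6, a subunit of complex I, stood at 77.9, 83.6 and 75.1 FPKM in TPhP and 34.8, 32.7 and 27.7 in DPhP (1.29 (95% interval 1.13 to 1.46, adjusted p = 2.85e-07)). The cytochrome oxidase subunit Cox6a1 was at 349, 313 and 330.4 FPKM in TPhP and 129, 123 and 117 in DPhP (1.42). Against the direction, the Ndufs1 log2 difference, of the largest complex I subunit, was -0.09, a call lost (adjusted p 0.0536 to 0.113) without TPhP replicate 1 or 3 or DPhP replicate 2 or 3. Over all tested genes split by transcript length into 4 groups of like size, the median was 0.143 for the shortest (216 to 2228 bases) and -0.043 for the longest; split by GC content, it was 0.151 for the highest (54.4% to 71.3%) and -0.054 for the lowest. With that trend removed, the medians of complex I and of complexes II to V were 0.23 and 0.16; its part in the differences was otherwise not tested. The tricarboxylic acid cycle had 8 of 20 higher in TPhP and 6 in DPhP (median 0.00), with pyruvate carboxylase Pcx (1.05) furthest on the TPhP side. Of 31 glycolysis and hypoxia genes, 14 were higher in DPhP and 9 in TPhP, beside 30.8% and 37.4% over all tested genes. The list's median was -0.05, and -0.16 with the trend removed. The growth factor Vegfa was at 13.8, 13.7 and 13.6 FPKM in TPhP and 37.4, 33.7 and 36.8 in DPhP (-1.33). The lactate carrier Slc16a3 had -1.46, while Adm (adrenomedullin) was higher in TPhP (1.08).

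**Figure D5:**
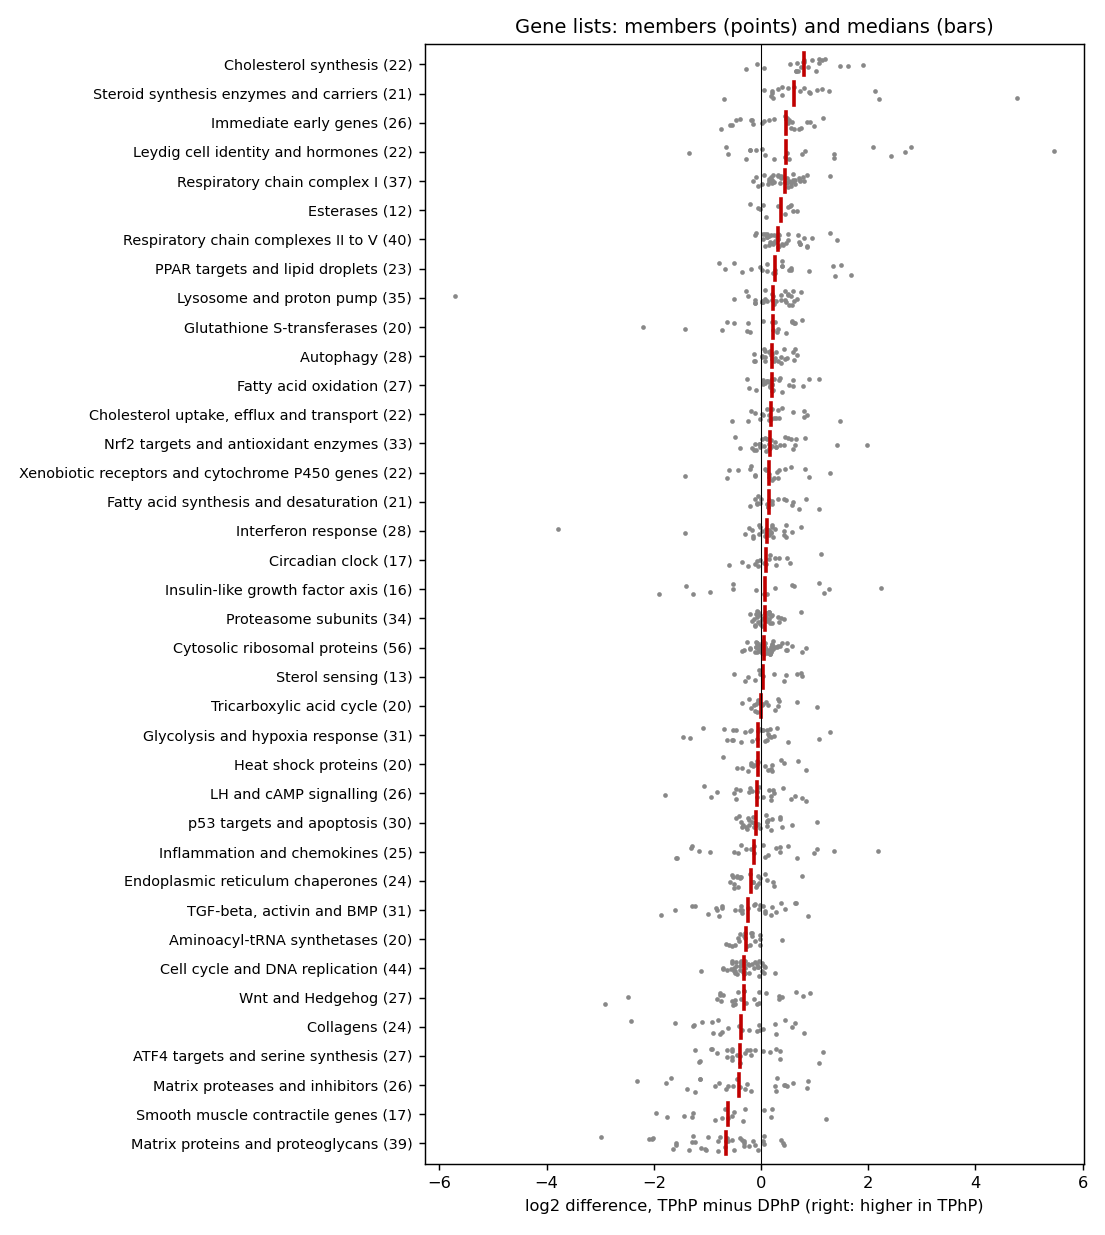
Log2 difference between TPhP and DPhP libraries for the tested members (points) of 38 gene lists, ordered by the list median (bars), with the number of tested members in brackets. Cholesterol synthesis has the highest median (0.81) and matrix proteins and proteoglycans the lowest (-0.66).

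Extracellular matrix genes were higher in DPhP. Of 39 tested matrix proteins and proteoglycans, 32 were higher in DPhP and 3 in TPhP, 14 by at least 1 (median -0.66). Mfap4, a microfibril-associated glycoprotein, stood at 7.09, 6.70 and 6.91 FPKM in TPhP and 60.9, 65.04 and 60.1 in DPhP (-2.99 (95% interval -3.08 to -2.90, adjusted p = 4.16e-11)). Mfap5, the fibulin Fbln1 and the latent TGF-beta binding protein Ltbp2 had differences of -2.08, -2.04 and -2.02, and the 2 largest in the other direction were Hspg2 (perlecan, 0.42) and the lysyl oxidase Loxl2 (0.41; 55.7% unique sequence). Of 24 collagens, 14 were higher in DPhP and 6 in TPhP (median -0.38). Col1a1 was at 447, 422 and 452 FPKM in TPhP and 1298, 1383 and 1344 in DPhP (-1.61), and Col12a1 at 6.09, 6.06 and 6.09 and 35.9, 37.8 and 38.1 FPKM (-2.43). The 2 largest differences on the TPhP side were in the basement membrane collagens Col4a6 (0.81) and Col4a3 (0.63). Matrix proteases and inhibitors had 17 of 26 higher in DPhP and 9 in TPhP (median -0.42), with Mmp3 (stromelysin) at 3.31, 3.61 and 3.27 FPKM in TPhP and 21.7, 21.7 and 19.5 in DPhP (-2.32) and the inhibitors Serpine2 and Serpinf1 at -1.78 and -1.68. Summed stromal fibroblast markers, 3041 to 3115 FPKM in TPhP and 5390 to 5526 in DPhP, stand beside these lists but are no separate measure, since Col1a1, Col3a1, Dcn and Lum, 4 of the 7, are members of them. For 5 of the 7 markers control lay between the groups.

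Smooth muscle genes moved as the matrix genes did. Of 17 contractile genes, 13 were higher in DPhP and 3 in TPhP (median -0.61). Acta2, smooth muscle actin, was at 346, 335 and 345 FPKM in TPhP and 944, 895 and 930.3 in DPhP (-1.43 (95% interval -1.49 to -1.36, adjusted p = 4.41e-10)), and Actg2, Cnn1 and Myh11 had -1.95, -1.76 and -1.28. The integrin Itga8 was higher in TPhP (1.21). All 7 myoid markers are members of this list, so their sum is no separate measure. The Sertoli markers Cldn11, Wt1 and Dhh, which are not in it, were higher in DPhP, at -2.06, -1.40 and -1.37. The part of other cells in these values was not tested.

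Among signalling genes, the Wnt and TGF-beta lists held more members higher in DPhP, and the insulin-like growth factor axis did not. In Wnt and Hedgehog signalling, 17 of 27 were higher in DPhP and 6 in TPhP (median -0.32). Sfrp1, a secreted Wnt antagonist, stood at 14.4, 13.6 and 14.2 FPKM in TPhP and 112, 117 and 108 in DPhP (-2.91 (95% interval -2.99 to -2.83, adjusted p = 2.84e-11)), and the ligand Wnt2b at 1.76, 2.35 and 1.92 and 16.2, 15.97 and 15.2 FPKM (-2.48). The related antagonist Sfrp2 ran the other way, at 352, 357 and 374 FPKM in TPhP and 188, 183 and 199 in DPhP (0.92). In the TGF-beta, activin and BMP list, 18 of 31 were higher in DPhP and 9 in TPhP (median -0.24): the ligand Bmp4 was at 4.27, 4.33 and 4.38 FPKM in TPhP and 18.7, 17.6 and 18.6 in DPhP (-1.86), the activin subunit Inhba had -1.29, and the inhibitory Smad6 was higher in TPhP (0.87). The insulin-like growth factor axis held large differences both ways, 7 of 16 higher in TPhP and 6 in DPhP (median 0.08, -0.01 with the GC and length trend removed). Stc1, a stanniocalcin hormone, was at 57.3, 56.8 and 59.5 FPKM in TPhP, 85.4, 88.2 and 98.2 in control and 12.1, 11.1 and 11.5 in DPhP (2.23), and Igfbp6, a binding protein, had 1.27; the protease Pappa, which cleaves binding proteins, and Igf2 were higher in DPhP (-1.39 and -1.91; 24.2% unique sequence for Igf2).

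Most ATF4 targets and aminoacyl-tRNA synthetases were higher in DPhP. Of 27 targets of the stress transcription factor ATF4 and serine synthesis genes, 20 were higher in DPhP and 6 in TPhP (median -0.39). Asns, asparagine synthetase, was at 20.2, 20.6 and 21.6 FPKM in TPhP and 46.7, 48.3 and 48.2 in DPhP (-1.16 (95% interval -1.24 to -1.08, adjusted p = 3.95e-09)), and Chac1, which degrades glutathione, and the proline enzyme Pycr1 had -1.23 and -1.13. The transcription factor Atf3 ran the other way, at 25.02, 27.03 and 26.1 FPKM in TPhP and 10.3, 11.3 and 11.8 in DPhP (1.16). Aminoacyl-tRNA synthetases were higher in DPhP in 16 of 20 cases and in TPhP in 1 (median -0.27): Gars was at 61.4, 63.3 and 63.1 FPKM in TPhP and 100.02, 98.8 and 97.1 in DPhP (-0.65), and Qars was the exception (0.39). Endoplasmic reticulum chaperones were higher in DPhP in 14 of 24 cases and in TPhP in 3 (median -0.18), with Hspa5 (BiP) at 299.5, 306 and 305 FPKM in TPhP and 452, 468 and 447 in DPhP (-0.58) and the sensor kinase Ern1 on the TPhP side (0.76). Of 20 heat shock proteins, 8 were higher in TPhP and 9 in DPhP (median -0.06; -0.13 after a common sum), with the mitochondrial Hspe1 at 0.84 and Hsph1 at -0.70.

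Of 33 Nrf2 targets and antioxidant enzymes, 21 were higher in TPhP and 4 in DPhP (median 0.16; 0.08 with the GC and length trend removed). The glutathione peroxidase Gpx3 was at 272, 264 and 269 FPKM in TPhP, 316, 311 and 299.8 in control and 67.2, 66.3 and 68.8 in DPhP (1.98 (95% interval 1.92 to 2.04, adjusted p = 4.16e-11)), and superoxide dismutase Sod1 at 215, 215 and 215 and 118, 124 and 120.5 FPKM (0.82). Hmox1, heme oxygenase and an Nrf2 target, was not called, with 112, 116 and 115 FPKM in TPhP and 116, 114 and 118 in DPhP (-0.02 (95% interval -0.08 to 0.04, adjusted p = 0.516)), although it was called higher in DPhP after rescaling to a common sum (-0.09). Glutathione S-transferases had 11 of 20 higher in TPhP and 8 in DPhP (median 0.21, 0.04 with the trend removed), but the largest differences lay on the DPhP side: Gstm6 was at 3.40, 3.62 and 2.85 FPKM in TPhP and 17.6, 18.7 and 19.9 in DPhP (-2.20), and Gstm7 had -1.41. Of 22 xenobiotic receptors and cytochrome P450 genes, 12 were higher in TPhP and 6 in DPhP (median 0.15; 0.07 with the trend removed and 0.08 after a common sum), beside 37.4% and 30.8% over all tested genes. The sulfotransferase Sult1a1 was at 8.48, 7.95 and 8.76 FPKM in TPhP, 13.9, 12.8 and 13.6 in control and 2.95, 2.97 and 2.71 in DPhP (1.28). Of 12 tested esterases, the class of enzymes that can hydrolyse phosphate and carboxylic esters, 7 were higher in TPhP and 1, Esd (-0.20), in DPhP (median 0.38); Pon3, a lactonase of the paraoxonase family, was at 64.03, 70.9 and 67 FPKM in TPhP and 43.1, 44.9 and 44.4 in DPhP (0.60), and Pnpla6, neuropathy target esterase, had 0.56. Aldh1a1, a retinaldehyde dehydrogenase and among the 5 most abundant genes in TPhP, was at 2642, 2716 and 2715 FPKM in TPhP and 551, 552 and 564 in DPhP (2.27 (95% interval 2.21 to 2.33, adjusted p = 1.34e-11)).

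Lysosomal, autophagy, proteasome and ribosomal genes had medians of 0.22 or less. The lysosome and proton pump list had 23 of 35 higher in TPhP and 7 in DPhP (median 0.22; 0.14 after quantile normalization), with Mcoln1, a lysosomal calcium channel, at 0.74 on the TPhP side and Ctsk, described above, on the DPhP side. In autophagy, 19 of 28 were higher in TPhP and 3 in DPhP (median 0.20; 0.13 after a common sum): the cargo receptor Sqstm1 was at 437, 435 and 425 FPKM in TPhP and 267, 276 and 269 in DPhP (0.67). Proteasome subunits had 16 of 34 higher in TPhP and 6 in DPhP and cytosolic ribosomal proteins 24 of 56 and 8, both with a median of 0.06. Both medians were -0.01 after rescaling to a common sum. Rpl30, a ribosomal protein of the large subunit, was the largest of these at 649, 683 and 594 FPKM in TPhP and 386, 358 and 337 in DPhP (0.83).

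Immune genes showed few broad but some large differences. In inflammation and chemokines, 12 of 25 were higher in DPhP and 8 in TPhP (median -0.13; -0.08 with the GC and length trend removed). The lipocalin Lcn2 was at 4.75, 4.34 and 4.52 FPKM in TPhP and 0.37, 0.06 and 0.25 in DPhP (2.18), and the chemokine Ccl7 at 8.33, 7.48 and 7.88 and 28.7, 20.5 and 28.02 FPKM (-1.57). Il33, an alarmin cytokine, was not called, at 0.87, 0.90 and 0.86 FPKM in TPhP and 0.74, 0.83 and 0.94 in DPhP (0.03 (95% interval -0.14 to 0.20, adjusted p = 0.716)), and both groups lay below its control libraries at 2.59, 2.42 and 2.48 FPKM. The interferon response list had 11 of 28 higher in TPhP and 6 in DPhP, beside 37.4% and 30.8% over all tested genes. Its median was 0.12, and 0.05 with the GC and length trend removed. Far on the DPhP side were 2 members of the p200 family of DNA sensors. Ifi204 was at 8.70, 8.73 and 8.69 FPKM in TPhP and 138, 129 and 131 in DPhP (-3.78 (95% interval -3.85 to -3.71, adjusted p = 3.74e-12), 79.3% unique sequence), and Ifi203 had -1.41. Macrophage markers were higher in DPhP for 7 of 10 genes, among them the complement components C1qb (-1.08) and C1qc (-0.81), but Ptprc (CD45) and the receptor Csf1r were higher in TPhP (0.52 and 0.21).

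Proliferation genes were higher in DPhP. Of 44 cell cycle and DNA replication genes, 33 were higher in DPhP and 1, the inhibitor Cdkn1b (0.26), in TPhP (median -0.32). Top2a, topoisomerase II, was at 36.01, 37.2 and 36.6 FPKM in TPhP and 60.5, 60.2 and 60.3 in DPhP (-0.71 (95% interval -0.77 to -0.64, adjusted p = 2.07e-08)), the proliferation marker Mki67 had -0.63, and Ccnd1, cyclin D1, was at 4.18, 3.78 and 3.80 and 9.57, 9.78 and 9.73 FPKM (-1.12). Apoptosis and p53 targets had 13 of 30 higher in DPhP and 8 in TPhP, beside 30.8% and 37.4% over all tested genes. The median was -0.10, and -0.16 after a common sum, with Trp53inp1 at 1.05 and Cdkn1a, the cyclin-dependent kinase inhibitor p21, at -0.47. Immediate early genes were higher in TPhP for 16 of 26 and in DPhP for 8 (median 0.46, 0.22 with the GC and length trend removed): Fos was at 20.2, 25.9 and 24.7 FPKM in TPhP and 11.5, 11.1 and 11.7 in DPhP (0.98), while Nr4a1, an orphan nuclear receptor, was at 6.96, 7.60 and 6.40 and 12.6, 11.6 and 12.8 FPKM (-0.74). Of 17 clock genes, 7 were higher in TPhP and 3 in DPhP, beside 37.4% and 30.8% over all tested genes. Their median was 0.10, and 0.04 with the trend removed, with the output gene Dbp at 1.12 and the repressor Nfil3 at -0.59.

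The most abundant genes included some on each side. Tpt1, a translationally controlled protein, was at 2538, 2493 and 2434 FPKM in TPhP and 1585, 1539.6 and 1456 in DPhP (0.71), Sparc, a matrix glycoprotein, at 2664 to 2731 and 2878 to 2979 FPKM (-0.12), and the fibrillar collagen Col3a1 at 1756, 1726 and 1807 and 2960.4, 3053 and 2993 FPKM (-0.77). Ftl1, ferritin light chain, had 0.20 and the elongation factor Eef1a1 -0.23; Ftl1 was -0.13 with the GC and length trend removed and Eef1a1 0.00 after quantile normalization, so neither direction holds under every scaling.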

How the data were processed

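RNA sequencing of primary Leydig cells was given for 3 control, 3 TPhP and 3 DPhP libraries. Per the labels' protocols, RNA was extracted with Trizol and enriched on oligo(dT) beads; they do not say whether the strand was kept, so overlapping and antisense genes may share reads. The authors deposited 1 table of FPKM values for 19058 genes, normalised to transcript length and mapped fragments. Per the submitters' processing notes the build was GRCm38.p6; no source used here names the aligner, the counter or the annotation. Since FPKM values are not counts, no count model was fitted, and the steps of single reads could not be recovered from low values, so depth is unknown. All columns were matched to samples by name and 0 were left unmapped.

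The members and the gene lists were chosen with earlier results of these data known. Values were analysed as log2(FPKM + 1), which understates the change of low genes, over 12369 genes with at least 1 FPKM in 3 or more libraries. The 6 TPhP and DPhP libraries were fitted in limma 3.58.1 (R 4.3.3) with an intensity trend, two-sided, and p-values were adjusted by the Benjamini-Hochberg method over all tested genes; an adjusted p under 0.05 was called. The script was tested on simulated data. The 46 lists hold 1111 genes, of which 1021 were tested, and are described by counts and medians without a set test. Named genes were the 10 largest in each direction, a Leydig panel, up to 4 of the largest, 2 against the majority and 2 uncalled members per list, 8 per direction with control between the groups, and the 5 most abundant per group; the text uses part of these, and Gata4, Amhr2, Hmgcs1 and Klk1b27 appear outside the rule, and a few genes that it names are not reported here. Positions and promoters came from RefSeq on GRCm38.p6, which matched 99.7% of genes. GC content, length and unique sequence (the share of 75-base stretches found in no other gene) came from GENCODE M21 transcripts for 98.5% of tested genes.

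Alternatives were pseudocounts of 0.1 and 0.5, no filter, a mean of at least 5 FPKM, a common sum, median-of-ratios factors, quantile normalization, removal of a lowess trend with GC content and length (span 0.5), all 9 libraries in the fit, a replicate block, no intensity trend, array weights, a minimum log2 difference of 1 and the omission of each library in turn. Another, which kept only genes whose unique sequence was at least 90%, was chosen after seeing the data.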

Additional observations from a re-analysis of the deposited data

How the results depend on the processing

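The count of called genes stayed within 1.5 times its value of 8440 under every alternative except a test against a minimum log2 difference of 1, which called 354 genes, 184 higher in TPhP and 170 higher in DPhP. Leaving out 1 library at a time gave 7815 to 8059 calls, 4301 to 4427 higher in TPhP and 3509 to 3632 higher in DPhP. Without a filter on low values, which tested more genes, 9354 were called, and with a mean of at least 5 FPKM 6501. The correlations of deviations from the group mean were 0.018, 0.075 and 0.104 between TPhP and DPhP libraries of equal replicate number. Between libraries of unequal number they lay from -0.126 to 0.055. Values this small cannot show whether equal numbers share a culture, animal or day. With the replicate block 8431 genes were called, 4630 higher in TPhP and 3801 higher in DPhP. Calls higher in TPhP were 54.8% of all calls as reported, 44.3% after a common sum, 50.2% with median-of-ratios factors, 48.4% after quantile normalization and 49.2% with the GC and length trend removed. That last alternative kept the direction and the call of 83.1% of calls and called 59 in the opposite direction.

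Of 158 named genes, 154 were called and 2 of these, Ndufs1 and Sparc, lost the call under an alternative while keeping their sign. Genes whose sign changed were counted apart from these, and they include the called genes Ftl1 and Eef1a1. Signs changed for 4 genes. With the GC and length trend removed, the log2 difference was -0.13 for Ftl1 and 0.02 for Ggps1. After rescaling to a common sum it was -0.00 for Il33. After quantile normalization it was 0.00 for Eef1a1 and -0.09 for Il33, and Il33 ranged from -0.01 to 0.07 when libraries were left out in turn. Fasn, Ggps1 and Hmox1, which were not called, passed the threshold under at least 1 scaling. The cause of these changes was not tested. List medians moved by more than the spread between libraries in 178 of 872 recomputations, at least once for 42 of the 46 lists. The medians of 4 lists changed sign under an alternative: sterol sensing, ribosomal proteins, proteasome subunits and the insulin-like growth factor axis. Since depth is unknown, the precision of low FPKM values is known only from the spread between libraries.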
